A study of Homo sapiens with 12 samples.

Results

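Chromosome 19 holds the largest collection of human C2H2 zinc finger genes, and its members were followed through the RNA of 12 libraries of the lung squamous cell carcinoma line NCI-H520. A member was a protein-coding gene on chromosome 19 whose symbol is ZNF, a number and at most 1 letter, with positions and symbols from GENCODE 44 on hg38. The rule gave 246 members of the 58302 gene rows of the count table, none of them chosen by its level. A further 262 ZNF genes lie on other chromosomes and 1217 other protein-coding genes on chromosome 19, and both sets were used for comparison.

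There were 4 groups of 3 libraries, all from NCI-H520 cells carrying a stable lentiviral vector and all in medium with 0.2% DMSO, replaced 5 h after seeding. OV-CTRL cells carried the empty vector and received DMSO alone. OV-L1-FGGY cells, which express a chimeric transcript joining an L1 retroelement to the carbohydrate kinase gene FGGY, received DMSO alone or 10 μM ML355, an inhibitor of 12-lipoxygenase. The NVR-labelled libraries carry in their title the L1-FGGY vector and 450 μM NVR, a reverse transcriptase inhibitor. The length of treatment and whether the replicates came from separate cultures are not stated, so the p-values measure the spread between these libraries, which may be technical.

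C2H2 zinc finger proteins read DNA with tandem fingers, each contacting a few bases. Most of the chromosome 19 genes also code for a KRAB domain, which recruits the corepressor TRIM28 (KAP1) and, through it, the histone H3 lysine 9 methyltransferase SETDB1 and HP1 proteins. Many KRAB zinc finger proteins bind retroelements, and the genes arose by tandem duplication, so that neighbours along the chromosome are often close relatives.

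The libraries fell into pairs that go across the labels, which bears on every comparison. FGGY had 91, 87 and 78 counts in OV-CTRL and 82, 103 and 88 in the NVR-labelled libraries, against 4782, 5206 and 6196 in OV-L1-FGGY with DMSO and 7346, 6290 and 5080 with ML355. The NVR-labelled libraries thus lacked the rise that marks the vector named in their title, and they are set here against both DMSO groups. The vector and whatever else separates the pairs cannot be told apart. SOX2, a defining gene of squamous lung tumours, had 360, 404 and 446 counts in OV-CTRL, 246, 358 and 128 in the NVR-labelled libraries and 0 in all 6 OV-L1-FGGY libraries, and 4 of 7 squamous markers (KRT5, KRT6A, PKP1 and DSG3) had at most 3 counts in any library (summed CPM, counts scaled to a common library size, 17.2 to 21.3, 9.0 to 17.2, 0.860 to 1.53 and 1.70 to 3.47 in OV-CTRL, labelled NVR, OV-L1-FGGY with DMSO and with ML355). KRT14, another of the 7, went the other way, with 0 counts in OV-CTRL and the NVR-labelled libraries, 4, 10 and 8 in OV-L1-FGGY with DMSO and 54, 29 and 63 with ML355. The 4 fibroblast markers summed to 19.5 to 25.1, 19.3 to 22.0, 335 to 349 and 111 to 121 CPM in the same order of groups, with 3, 3, 1 and 1 of the 4 at 3 counts or fewer in every library of the group and LUM and DCN leading in OV-L1-FGGY. The 4 leukocyte markers summed to at most 3.71 CPM in any library, and PTPRC, CD3E and MS4A1 were at 0 in OV-CTRL and the NVR-labelled libraries. The 4 adenocarcinoma markers summed to 4.58 to 5.43, 7.59 to 10.6, 0.454 to 0.789 and 0.345 to 0.578 CPM in the same order. The 2 endothelial markers summed to 8.52 to 9.31 CPM in OV-L1-FGGY with DMSO and to at most 0.690 CPM elsewhere. The part of these differences in the results on the members was not tested. In RNA of whole cultures, fewer cells of a kind and less RNA per cell cannot be told apart.

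Some promoters of the members are close in sequence. A RefSeq window of 300 bases (250 before the start of the gene and 50 after it, GRCh38.p14) was found for 216 members, and 5 are printed because large contrasts below turn on them. They are given 5′ to 3′ on the strand of the gene, with CpG dinucleotides, the sites of DNA methylation, in capitals. The first 3 lie in the same cluster of close relatives and have very different RNA levels. They are ZNF91 (chr19:23395422-23395721, minus strand), ZNF43 (chr19:21836133-21836432, minus strand) and ZNF208 (chr19:22010894-22011193, minus strand). ZNF320 (chr19:52897645-52897944, minus strand) had no count in OV-CTRL and was counted in every OV-L1-FGGY library, and ZNF606 (chr19:58002771-58003070, minus strand) did the reverse.
ZNF91: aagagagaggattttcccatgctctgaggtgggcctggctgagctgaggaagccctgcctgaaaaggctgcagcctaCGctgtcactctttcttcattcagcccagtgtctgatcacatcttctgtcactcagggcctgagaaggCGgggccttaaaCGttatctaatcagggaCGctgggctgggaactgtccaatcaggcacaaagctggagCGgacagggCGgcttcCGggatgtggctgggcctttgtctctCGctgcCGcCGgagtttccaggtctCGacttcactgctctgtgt
ZNF43: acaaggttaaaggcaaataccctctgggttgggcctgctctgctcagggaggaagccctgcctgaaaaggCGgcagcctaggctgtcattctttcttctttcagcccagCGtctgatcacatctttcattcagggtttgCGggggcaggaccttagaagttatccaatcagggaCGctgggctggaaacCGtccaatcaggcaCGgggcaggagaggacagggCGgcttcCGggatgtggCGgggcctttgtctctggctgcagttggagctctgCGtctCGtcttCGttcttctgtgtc
ZNF208: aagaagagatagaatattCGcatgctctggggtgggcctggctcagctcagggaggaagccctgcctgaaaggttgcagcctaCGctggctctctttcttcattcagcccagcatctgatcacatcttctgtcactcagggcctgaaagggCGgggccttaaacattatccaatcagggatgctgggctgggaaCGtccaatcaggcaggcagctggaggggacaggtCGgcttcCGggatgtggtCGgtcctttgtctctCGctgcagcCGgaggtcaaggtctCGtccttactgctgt
ZNF320: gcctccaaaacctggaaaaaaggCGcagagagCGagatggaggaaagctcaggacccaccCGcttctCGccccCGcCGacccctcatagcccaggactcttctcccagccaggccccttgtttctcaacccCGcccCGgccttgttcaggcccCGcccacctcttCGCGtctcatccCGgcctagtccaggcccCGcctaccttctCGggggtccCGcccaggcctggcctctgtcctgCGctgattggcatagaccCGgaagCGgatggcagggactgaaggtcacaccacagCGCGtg
ZNF606: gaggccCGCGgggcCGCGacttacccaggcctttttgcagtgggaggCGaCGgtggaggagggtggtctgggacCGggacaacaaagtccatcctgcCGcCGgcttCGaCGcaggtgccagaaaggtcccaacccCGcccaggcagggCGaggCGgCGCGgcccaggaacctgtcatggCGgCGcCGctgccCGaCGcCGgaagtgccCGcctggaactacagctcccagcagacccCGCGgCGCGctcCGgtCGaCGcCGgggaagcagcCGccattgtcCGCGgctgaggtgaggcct
The ZNF91 window was identical at 246 of 300 bases to that of ZNF43 and at 262 to that of ZNF208, in a global alignment with free ends, against 151 for ZNF320 and 165 for ZNF606. The identity of the other pairs ran from 70 bases (ZNF43 with ZNF320) to 243 (ZNF43 with ZNF208). With free ends the aligned lengths differed, and the counts of identical bases depend on them. For ZNF91 they were 289 bases with ZNF43, 293 with ZNF208, 213 with ZNF320 and 235 with ZNF606. For ZNF43 with ZNF320 98 bases were aligned. The windows of ZNF91, ZNF43 and ZNF208 held 11, 12 and 10 CpGs, those of ZNF320 and ZNF606 20 and 34.

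Short motifs differed in frequency between the members' windows and other windows of the same length. CCGGAAG, the core letters bound by ETS factors, occurred on either strand in 45.4% of the members' windows, in 28.6% of those of ZNF genes elsewhere, in 12.9% of those of protein-coding genes and in 10.3% of all 35116 windows. The GC box GGGCGG was in 67.6% of the members' windows, against 56.4% for ZNF genes elsewhere, 56.8% for protein-coding genes and 45.0% of all. CCAAT was in 53.7%, against 39.4%, 34.8% and 34.6% in the same order, and TATAAA in 1.85%, against 5.57%, 9.44% and 11.5%. ATGGCGG, part of a YY1 motif, was in 8.80%, against 8.71%, 7.07% and 5.55%, so that the members were close to the other ZNF genes. The percentages are over windows, with at most 1 window per member (216 windows). The ZNF genes elsewhere had 287 windows for 262 genes and the protein-coding genes 21548 windows, so a gene can count more than once there. All motifs were searched on both strands, matches of different motifs may overlap at their ends, and a match describes the letters alone.

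Along the chromosome, 232 of the 246 members fell into 10 clusters, defined as runs of at least 5 members with no gap over 500 kb, and 14 were dispersed. From the short arm they are C1 (5 members, ZNF554 to ZNF77), C2 (13, ZNF414 to ZNF846), C3 (25, ZNF653 to ZNF791), C4 (37, ZNF101 to ZNF254, at 19.7 to 24.1 Mb), C5 (5, ZNF302 to ZNF792, at 34.7 to 35.0 Mb), C6 (26, ZNF565 to ZNF573), C7 (23, ZNF575 to ZNF180), C8 (39, ZNF175 to ZNF331, at 51.6 to 53.6 Mb), C9 (16, ZNF628 to ZNF835, at 55.5 to 56.7 Mb) and C10 (43, ZNF264 to ZNF446, at 57.2 to 58.5 Mb). The coding sequence of 197 members held a KRAB-type match and the median number of C2H2 fingers was 13. C9 stood apart in makeup: 5 of its 16 members had the KRAB-type match and its median transcript GC content was 63.3%, against 36.8% in C4, where 34 of 37 had the match.

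A member was counted as expressed in a group when each of its 3 libraries had at least 10 counts, and as at the floor when each had 3 or fewer. By this measure 132 members were expressed in all 4 groups, 34 were at the floor in all 4 and 80 were neither. The number expressed was 160 in OV-CTRL, 158 in the NVR-labelled libraries, 174 in OV-L1-FGGY with DMSO and 163 with ML355. The similar totals covered opposite movements of the clusters: C8 had 16 expressed members in OV-CTRL and 17 in the NVR-labelled libraries but 29 and 28 in OV-L1-FGGY with DMSO and ML355, whereas C10 had 41 and 38 against 35 and 30. C4 held the most silent genes, with 13 of 37 members at the floor in all 4 groups.

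**Figure D1:**
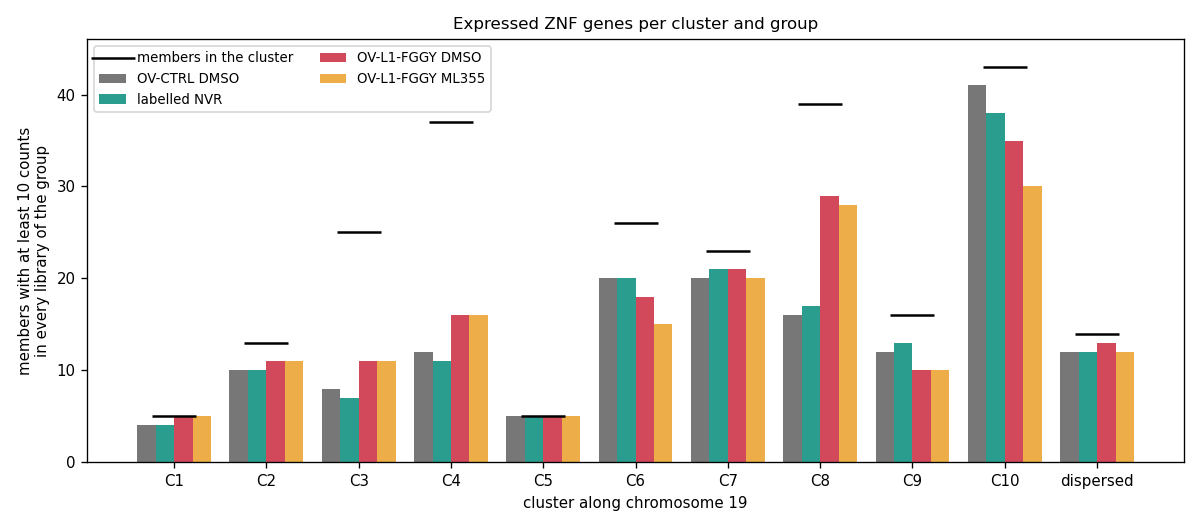
Number of members with at least 10 counts in every library of a group (y axis) for each cluster along chromosome 19 (x axis), with 1 bar per group and a black tick at the number of members. In C8 the bars rise from 16 and 17 in OV-CTRL and the NVR-labelled libraries to 29 and 28 in OV-L1-FGGY, while in C10 they fall from 41 and 38 to 35 and 30.

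Levels per kilobase of exon were led by the GC-rich genes of C9. In OV-CTRL the highest members were ZNF579 at 75.2 CPM per kb, ZNF787 at 54.8 and ZNF865 at 35.8, all in C9, followed by ZNF146 of C6 at 33.7. In OV-L1-FGGY with DMSO ZNF146 led at 25.1 CPM per kb, ZNF580 followed at 16.9 and ZNF579 stood at 8.15. The median over expressed members moved the other way, from 0.902 CPM per kb in OV-CTRL to 1.88 in OV-L1-FGGY with DMSO, with 0.919 in the NVR-labelled libraries and 1.43 with ML355. Together the members made up 0.198% to 0.263% of the counts of a library.

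The first comparison asked how OV-L1-FGGY cells differed from OV-CTRL cells, both in DMSO. Most tested members were higher in OV-L1-FGGY and the clusters differed in how many went each way, without a test of position. Of 195 members that passed the filter on low counts, 106 were higher and 44 lower at an adjusted p under 0.01 (edgeR's quasi-likelihood test, Benjamini-Hochberg adjustment over 17849 genes), beside 32.5% higher and 36.2% lower among all genes tested. The median log2 fold change was 0.87 over the tested members, -0.11 over all genes, 0.13 over the ZNF genes elsewhere and -1.26 over the other protein-coding genes of chromosome 19, so the medians of the members and of those genes had opposite signs. These genes also differ in GC content, with medians of 42.8% in the tested members, 49.1% in all genes and 61.1% in the other genes of the chromosome. With the GC trend of each library removed, an alternative chosen after the data were seen, 93 members were higher and 43 lower with a median of 0.57. The median over all genes was 0.03 in that fit. The shares of all genes called in that fit are not given, here or for the clusters below, and the shares above do not apply to it.

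**Figure D2:**
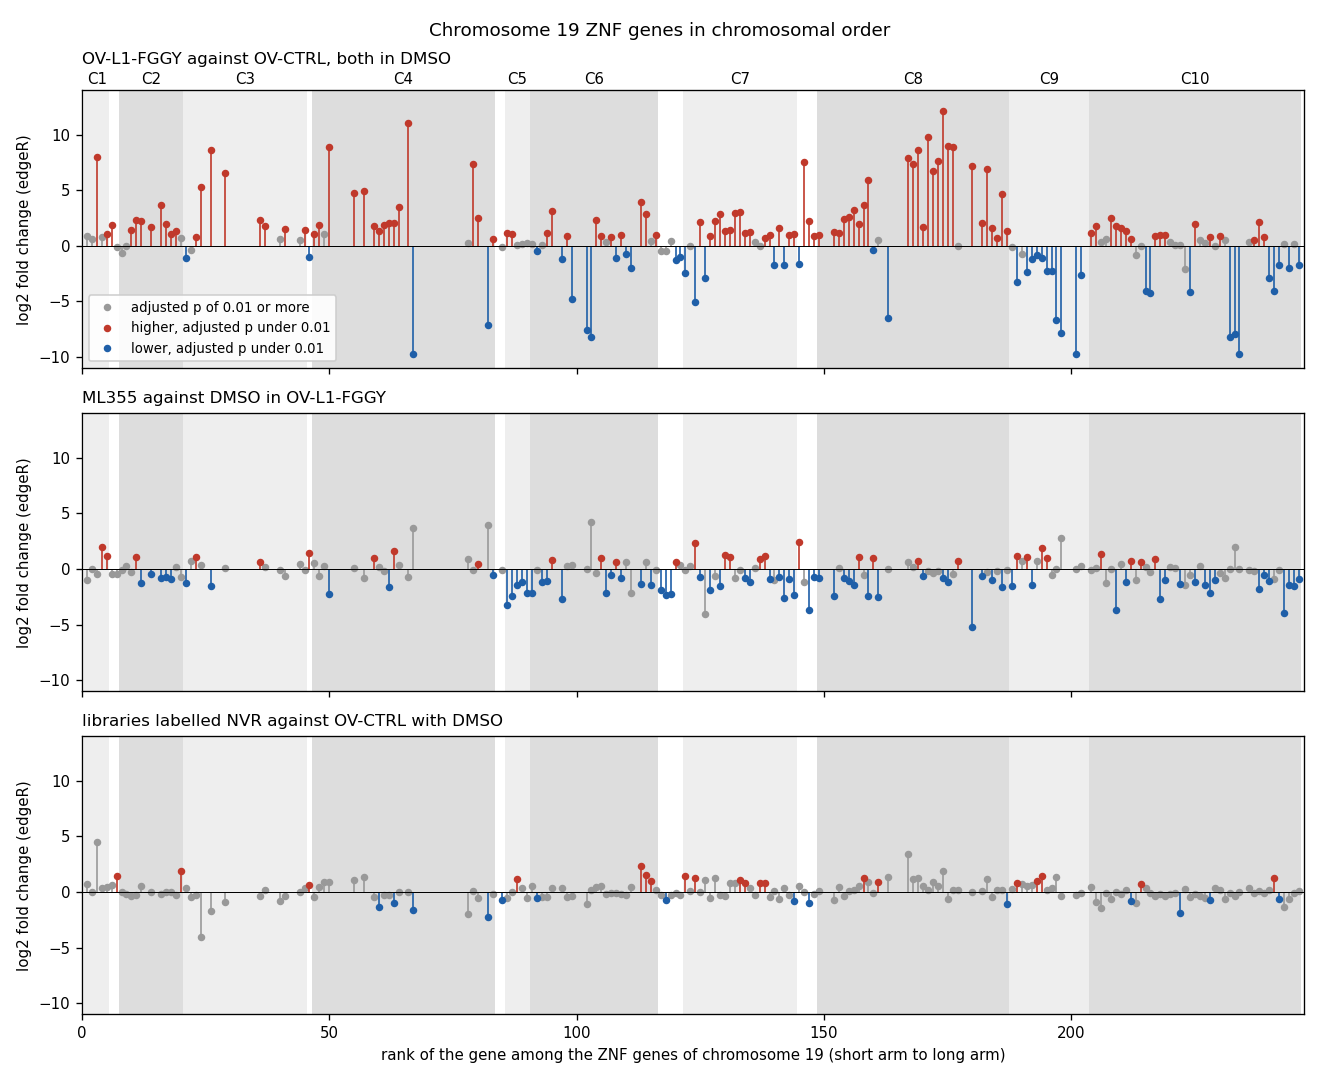
Log2 fold change (y axes, edgeR) of the tested members in their order along chromosome 19 (x axis) for OV-L1-FGGY against OV-CTRL, ML355 against DMSO in OV-L1-FGGY, and the NVR-labelled libraries against OV-CTRL, with red and blue for adjusted p under 0.01 and shading for the clusters. In the upper panel C8 has 26 members up and 2 down and C9 has 0 up and 11 down, and the lower panel has 20 up and 14 down, with fitted values that are no bounds for genes without counts in a group.

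C8, a cluster of 39 genes of which 38 have the KRAB-type match, had the highest median of the clusters. Of its 30 tested members 26 were higher and 2 lower in OV-L1-FGGY, with a median log2 fold change of 2.92, or 2.73 when members with no count in a group are set at the bound that 3 counts per library allow. Of the 9 members left out of the test 8 had at most 2 counts in any library, and ZNF528 reached 18 counts in the NVR-labelled libraries. The median depended on the silent genes: with the test restricted to genes with at least 10 counts in every library it was 1.37.

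Among the largest rises of C8 were those of neighbouring genes that were almost without RNA in OV-CTRL, but members already expressed there rose as well. ZNF320 had 0, 0 and 0 counts in OV-CTRL and 0, 0 and 1 in the NVR-labelled libraries, against 462, 527 and 511 in OV-L1-FGGY with DMSO and 280, 322 and 277 with ML355. It was at least 223-fold higher in OV-L1-FGGY than in OV-CTRL, both with DMSO (edgeR adjusted p = 2.7e-12). ZNF600 had 1, 0 and 0 counts in OV-CTRL and 330, 273 and 333 in OV-L1-FGGY with DMSO, a ratio of 1254 (counting interval 225 to 49579). ZNF888 went from 0, 0 and 2 counts to 270, 299 and 358, a ratio of 621 (counting interval 171 to 5135). In each of these genes every OV-L1-FGGY library lay far above every library of the other pair.

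ZNF83, whose protein has 14 fingers and no KRAB-type match, had the smallest adjusted p in C8. It had 1, 1 and 6 counts in OV-CTRL, 9, 5 and 3 in the NVR-labelled libraries, 665, 899 and 858 in OV-L1-FGGY with DMSO and 1400, 1517 and 1161 with ML355 (log2 fold change of OV-L1-FGGY against OV-CTRL 8.58, standard error 0.30, edgeR adjusted p = 5.64e-13). ZNF808, which silences MER11 elements and is needed for the pancreas to form, had 1, 0 and 0 counts in OV-CTRL and 91, 84 and 80 in OV-L1-FGGY with DMSO. ZNF701, ZNF28, ZNF468, ZNF816 and ZNF525 had the same pattern, with mean levels of 0.0128 to 0.224 CPM in OV-CTRL and 8.83 to 38.3 CPM in OV-L1-FGGY. The spans of ZNF808 and ZNF701 overlap on 1 strand, as do those of ZNF28 and ZNF468, so reads of the shared parts cannot be assigned to either.

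From ZNF808 to ZNF816 (chr19:52527652-52962911) 9 of the 10 members had this pattern and the tenth did not. ZNF611, in the middle, had 71, 112 and 97 counts in OV-CTRL and 218, 226 and 244 in OV-L1-FGGY with DMSO, a log2 fold change of 1.72. Beyond the stretch ZNF160 was level, with 402, 483 and 541 counts in OV-CTRL and 328, 310 and 398 in OV-L1-FGGY (log2 fold change -0.04). ZNF880 went the other way, with 14, 9 and 17 counts in OV-CTRL, 24, 38 and 28 in the NVR-labelled libraries and 0 in all 6 OV-L1-FGGY libraries.

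**Figure D3:**
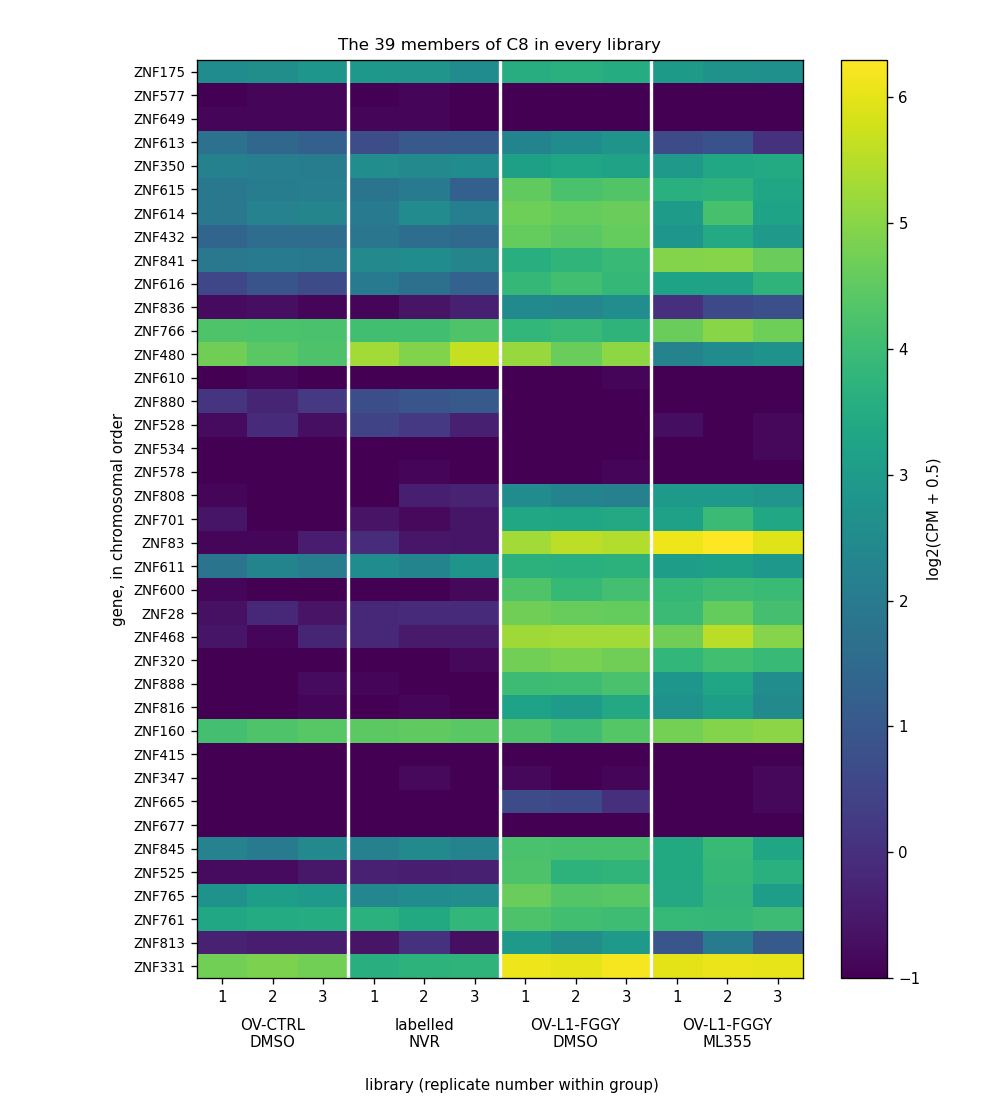
Heat map of log2(CPM + 0.5) for the 39 members of C8 in chromosomal order (rows) in the 12 libraries (columns, grouped by condition). The rows from ZNF808 to ZNF816 are dark in the 6 libraries of OV-CTRL and labelled NVR and bright in the 6 of OV-L1-FGGY, apart from ZNF611, which has RNA in all 12.

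C4, the ZNF91 family in the part of the short arm next to the centromere, held members that moved in opposite directions. Of 19 tested members 15 were higher and 2 lower, with a median log2 fold change of 1.91 (1.21 with the GC trend removed). ZNF91, a primate repressor of SVA retroelements with 33 fingers, had 1, 2 and 7 counts in OV-CTRL, 5, 3 and 1 in the NVR-labelled libraries, 363, 423 and 462 in OV-L1-FGGY with DMSO and 409, 444 and 373 with ML355 (log2 fold change 7.32, standard error 0.31, edgeR adjusted p = 3.81e-12). ZNF100 had 0 counts in all 6 libraries of OV-CTRL and labelled NVR and 207, 268 and 235 in OV-L1-FGGY with DMSO, at least 105-fold higher. ZNF253 had 0, 0 and 1 counts in OV-CTRL and 160, 177 and 189 in OV-L1-FGGY.

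ZNF43 and ZNF726 did the opposite within the same cluster. ZNF43 had 106, 134 and 134 counts in OV-CTRL, 38, 49 and 18 in the NVR-labelled libraries, 0, 0 and 0 in OV-L1-FGGY with DMSO and 0, 1 and 3 with ML355, at least 30.8-fold lower in OV-L1-FGGY than in OV-CTRL. ZNF726 had 22, 21 and 18 counts in OV-CTRL and 0 in OV-L1-FGGY with DMSO. ZNF208, whose printed window is nearer to that of ZNF91 than the ZNF43 window is, had 0 counts in all 12 libraries. These are 3 of 29 windows in the cluster. Of the 28 compared with ZNF91, 12 belong to members that were higher in OV-L1-FGGY (163 to 261 identical bases), 2 to members that were lower (246 and 257), 1 to a member that was not called and 13 to members that were not tested.

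C1, C2, C3, C5 and C7 had more members higher than lower as well. C1 and C5 each had 2 of 5 higher and 0 lower, not far from the 32.5% called higher among all genes tested. In C1 ZNF556 was among them, with 0 counts in OV-CTRL and 24, 20 and 43 in OV-L1-FGGY with DMSO, at least 12.8-fold higher. C2 had 8 of 11 tested members higher and 0 lower (median log2 fold change 1.44), led by ZNF426 with 31, 46 and 50 counts in OV-CTRL and 388, 387 and 437 in OV-L1-FGGY. C3 had 8 of 12 higher and 1 lower (median 1.45). Its ZNF700 went from 1, 5 and 1 counts to 162, 169 and 186, ZNF440 from 0, 1 and 0 to 119, 149 and 170 and ZNF441 from 3, 3 and 1 to 83, 52 and 77. C7 had 15 of 23 higher and 5 lower (median 0.98), although the largest change there was a fall. ZNF428, a short gene with 1 finger by the pattern used, had 1249, 1028 and 911 counts in OV-CTRL and 27, 24 and 22 in OV-L1-FGGY (log2 fold change -5.03, standard error 0.37, edgeR adjusted p = 3.99e-09).

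C9 went down. None of its 13 tested members was higher and 11 were lower, with a median log2 fold change of -2.26 beside -2.36 over the 11 other tested protein-coding genes within its bounds. ZNF579 had 7003, 6835 and 4883 counts in OV-CTRL and 501, 525 and 492 in OV-L1-FGGY (log2 fold change -3.21). KRAB genes were among those that fell. ZNF470 had 96, 133 and 160 counts in OV-CTRL, 98, 130 and 57 in the NVR-labelled libraries and 0 in all 6 OV-L1-FGGY libraries, at least 32.0-fold lower in OV-L1-FGGY with DMSO than in OV-CTRL, and ZNF71 had 583, 575 and 621 against 46, 84 and 88 (log2 fold change -2.62). With the GC trend removed the median of C9 was -0.50, with 3 members higher and 8 lower.

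C6 and C10 were mixed. C10 had 16 of 42 tested members higher and 11 lower, and neighbours differed sharply. ZNF606 had 121, 137 and 119 counts in OV-CTRL, 106, 136 and 84 in the NVR-labelled libraries and 0 in all 6 OV-L1-FGGY libraries (at least 31.2-fold lower, edgeR adjusted p = 9.98e-09), and ZNF418 and ZNF256 of the same cluster fell from 37, 48 and 45 and from 32, 34 and 39 counts to 0 in OV-L1-FGGY with DMSO. ZNF671, a gene often methylated in tumours, had 26, 16 and 36 counts against 3, 0 and 0, and ZNF549 63, 76 and 69 against 0, 7 and 1 (log2 fold change -4.23). In the same cluster ZNF544 rose from 147, 154 and 189 counts to 530, 471 and 608 (log2 fold change 2.14, standard error 0.14, edgeR adjusted p = 1.04e-09). C6 had 10 of 22 tested members higher and 8 lower, but 4 higher and 9 lower with the GC trend removed. Its ZNF529 rose from 59, 43 and 68 counts to 366, 360 and 395, while ZNF568, a repressor of a placental Igf2 promoter in the mouse, had 39, 31 and 62 counts against 0, 0 and 0.

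Across all clusters, 9 members were expressed in both OV-L1-FGGY groups and at the floor in OV-CTRL and the NVR-labelled libraries: ZNF441, ZNF440, ZNF253, ZNF737, ZNF100, ZNF600, ZNF320, ZNF888 and ZNF816. They are 3.66% of the members, beside 0.655% of all protein-coding genes and 0.763% of the ZNF genes elsewhere. Another 9 had the reverse pattern: ZNF43, ZNF850, ZNF404, ZNF583, ZNF470, ZNF671, ZNF418, ZNF256 and ZNF606. These are 3.66% of the members, beside 2.47% of protein-coding genes and 3.44% of the ZNF genes elsewhere. The promoter windows of the 2 sets had a median of 16 CpGs (6 windows) and 21 CpGs (9 windows), beside 22 for the members expressed in all 4 groups. The median was also 16 for the members at the floor in all 4 groups (26 windows), and 20 over all members with a window.

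**Figure D4:**
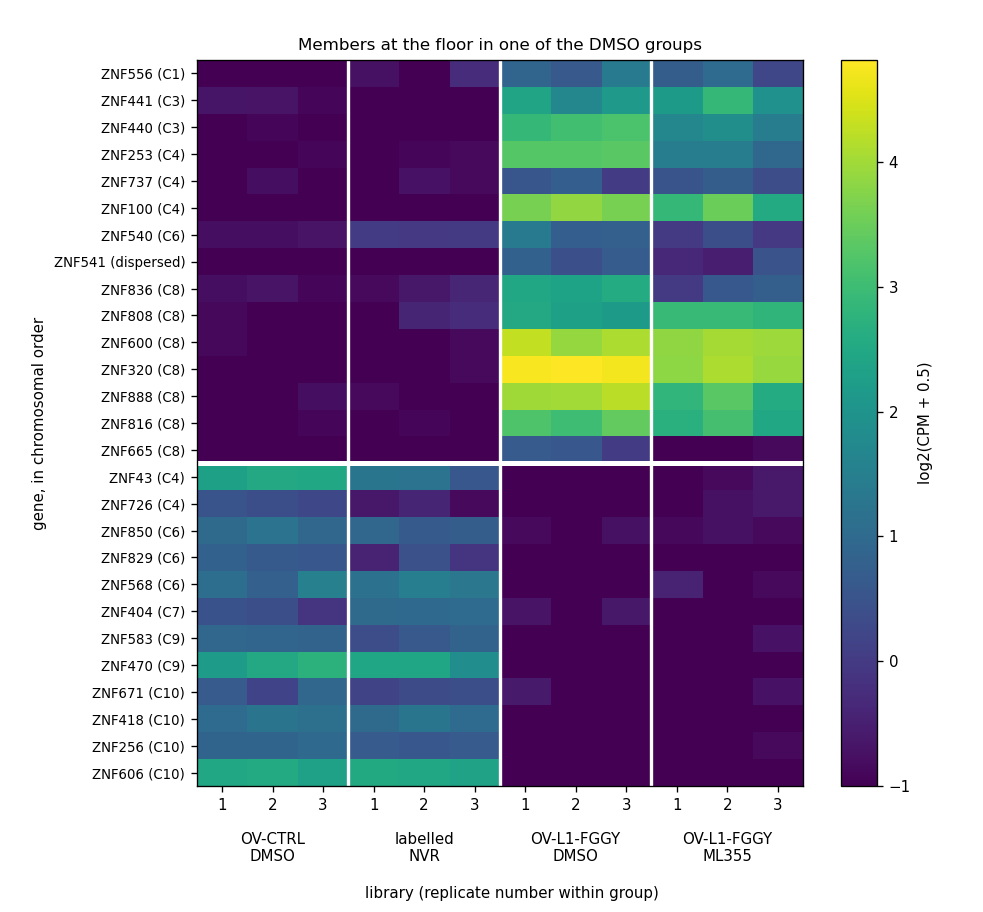
Heat map of log2(CPM + 0.5) for the 15 members expressed in OV-L1-FGGY with DMSO and at the floor in OV-CTRL (upper block) and the 12 with the reverse pattern (lower block), in the 12 libraries (columns, grouped by condition). Most upper rows are bright in the 6 OV-L1-FGGY libraries and dark in the other 6, except that ZNF665 is dark with ML355. Most lower rows show the reverse, and ZNF726, ZNF829 and ZNF568 are not among the 9 members with the reverse pattern in all 4 groups.

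The KRAB-type match was unevenly spread over the calls. It was present in 96 of the 106 members that were higher in OV-L1-FGGY and in 23 of the 44 that were lower. Median log2 fold changes were 0.99 over the 155 tested members with the match and -0.80 over the 40 without. Among members with a transcript GC content under 50% the medians were 1.09 and 0.63, and with the GC trend removed they were 0.67 and 0.03 over all tested members.

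The second comparison was of ML355 with DMSO in OV-L1-FGGY cells, which both carry the high FGGY level. More members fell than rose with ML355: 31 were higher and 71 lower of 195 tested, beside 21.3% higher and 23.5% lower among all genes tested, with a median log2 fold change of -0.35. The falls were spread over C8 (4 higher, 14 lower of 30), C10 (4 and 16 of 42), C7 (5 and 10 of 23) and C6 (3 and 9 of 22). The number of expressed members was 35 with DMSO and 30 with ML355 in C10, and 18 and 15 in C6.

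C5 was lower as a whole. All 5 of its members fell with ML355, with a median log2 fold change of -2.15. ZNF302 had 950, 965 and 1074 counts with DMSO and 119, 121 and 96 with ML355 (log2 fold change -3.21, standard error 0.17, edgeR adjusted p = 7.5e-10). ZNF181 went from 358, 396 and 402 to 82, 58 and 83 (log2 fold change -2.43) and ZNF792 from 74, 91 and 69 to 19, 24 and 12 (-2.15). ZNF599 went from 48, 52 and 62 to 21, 11 and 31 (-1.41) and ZNF30 from 101, 135 and 159 to 47, 77 and 62 (-1.13). Over all genes tested 23.5% were called lower with ML355. No ML355 library overlapped a DMSO library of OV-L1-FGGY in any of the 5, and the share of all genes without overlap was not counted. The NVR-labelled libraries did not share this fall: against OV-CTRL 1 of the 5, ZNF599, was higher (126, 124 and 146 counts against 80, 57 and 68) and none was lower, and the difference between the effects of the inhibitors, each against the DMSO group of its own pair, was called for all 5 (log2 differences 1.45 to 2.68, adjusted p = 2.22e-07 to 0.00266 in edgeR, beside 16.8% of all genes called in that direction).

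**Figure D5:**
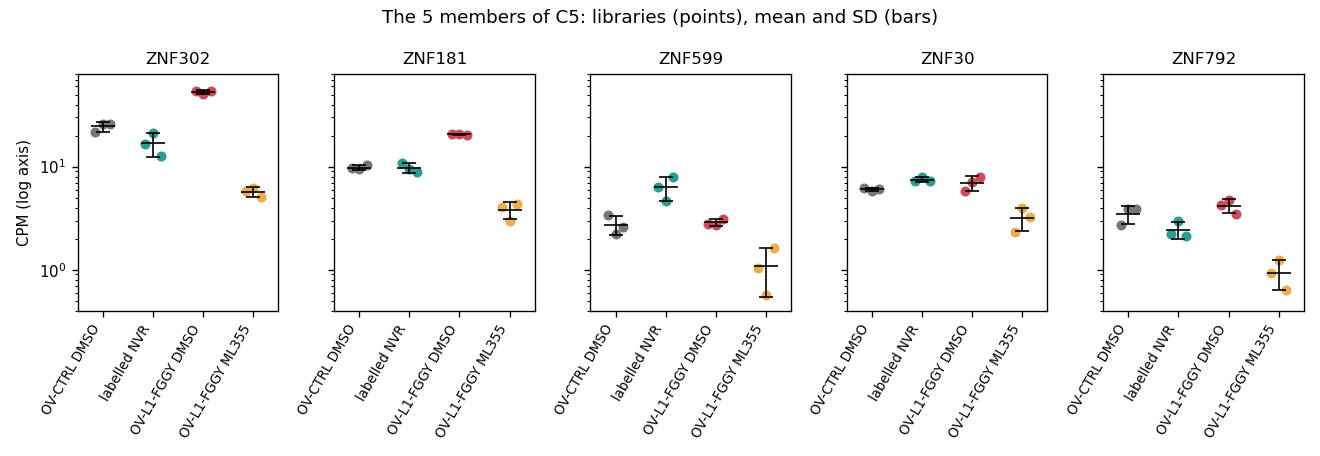
CPM (log axis) of the 5 members of C5 in the 12 libraries, with points for libraries and bars for the mean and SD of 3. In each panel the ML355 libraries are the lowest group, with means from 0.934 CPM in ZNF792 to 5.71 CPM in ZNF302.

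Among members with a mean of at least 1 CPM and no overlap between the groups, the largest falls with ML355 outside C5 were in ZNF132, ZNF114, ZNF416 and ZNF461. ZNF132, a gene of C10 reported as methylated in several tumours, had 35, 60 and 27 counts with DMSO and 3, 1 and 4 with ML355 (log2 fold change -3.94, standard error 0.52, edgeR adjusted p = 9.77e-06). ZNF114 had 218, 178 and 215 against 11, 19 and 20 (-3.66), ZNF416 129, 135 and 140 against 14, 39 and 11 (-2.71) and ZNF461 59, 57 and 55 against 15, 9 and 4 (-2.67). ZNF665 of C8 had 19, 19 and 10 counts with DMSO, 0, 0 and 1 with ML355 and 0 in the other 6 libraries, so that it was expressed in 1 group. ZNF480, in the same cluster, went from 616, 462 and 650 to 88, 104 and 118 (-2.54).

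By the same criteria the largest rises with ML355 were in ZNF296, ZNF428, ZNF57, ZNF581 and ZNF738. ZNF296 went from 50, 69 and 47 counts to 323, 206 and 413 (log2 fold change 2.44, standard error 0.31, edgeR adjusted p = 6.45e-06). ZNF428 rose from 27, 24 and 22 to 118, 70 and 191 (2.31) and ZNF581 from 273, 289 and 285 to 1156, 706 and 1364 (1.87). In CPM, ZNF428 averaged 6.49 ± 3.27 with ML355 and 42.6 ± 9.03 in OV-CTRL (SD, n = 3), and ZNF581 55.0 ± 17.7 and 32.9 ± 7.38. ZNF57 rose from 38, 53 and 45 to 207, 159 and 199 (1.99) and ZNF738 from 86, 134 and 99 to 331, 384 and 294 (1.60). C9 had 4 members higher and 2 lower of 13 (median 0.68).

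The third comparison set the NVR-labelled libraries against OV-CTRL, the groups with the same low FGGY level. The members differed little: 20 were higher and 14 lower of 195, beside 14.5% higher and 15.3% lower among all genes tested, with a median log2 fold change of 0.00. The split rests on the scaling, with 16 higher and 18 lower under library size alone, where the median log2 fold change of all genes was -0.15 in place of 0.00. It also rests on single libraries, with 10 higher and 8 lower without OV-CTRL replicate 3, 13 and 9 without OV-CTRL replicate 2, and 16 and 7 without replicate 1 of the NVR-labelled libraries. The shares of all genes called in these refits are not given. Whether the changes in number are particular to the members was not tested.

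By the same criteria the largest rises were in ZNF846, ZNF571, ZNF575, ZNF358 and ZNF581. ZNF846 of C2 had 77, 75 and 49 counts in the NVR-labelled libraries and 23, 30 and 11 in OV-CTRL (log2 fold change 1.86, standard error 0.34, edgeR adjusted p = 0.000411). ZNF575 had 324, 415 and 353 against 155, 138 and 166 (1.48) and ZNF358 776, 643 and 1100 against 434, 349 and 347 (1.44, a call lost without OV-CTRL replicate 3). ZNF581 had 1749, 1719 and 2031 against 975, 792 and 694 (1.41). ZNF571 had 46, 53 and 27 against 6, 19 and 24 (1.57), a call lost without replicate 1 of the NVR-labelled libraries and when only the compared groups were fitted.

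The largest falls by these criteria were in ZNF551, ZNF43, ZNF714, ZNF331 and ZNF738. ZNF551 of C10 had 28, 40 and 18 counts in the NVR-labelled libraries and 95, 123 and 142 in OV-CTRL (log2 fold change -1.86, standard error 0.23, edgeR adjusted p = 1.08e-05). ZNF331, an imprinted gene at the end of C8, had 234, 344 and 235 against 631, 722 and 683 (-1.12), while in OV-L1-FGGY it had 1208, 1231 and 1436 with DMSO and 1283, 1308 and 1235 with ML355. ZNF714 had 45, 73 and 36 against 122, 146 and 187 (-1.36). ZNF738 had 16, 17 and 12 against 27, 42 and 36 (-1.0), a call that was lost in 9 of its alternatives, DESeq2's size factors and voom among them.

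Set beside the effect of ML355, which shares no library with it, the NVR comparison called 7 members higher in both (ZNF333, ZNF428, ZNF226, ZNF227, ZNF579, ZNF581 and ZNF419) and 5 lower in both (ZNF780B, ZNF180, ZNF114, ZNF551 and ZNF587B). These are 3.59% and 2.56% of the tested members, beside 4.71% and 4.95% of all genes tested. The NVR call of ZNF114 was lost in 8 of its alternatives and that of ZNF428 in 3. A further 5 were lower with ML355 and higher in the NVR-labelled libraries (ZNF599, ZNF540, ZNF607, ZNF224 and ZNF480) and 2 the reverse (ZNF738 and ZNF749), which are 2.56% and 1.03% of the tested members beside 2.44% and 2.86% of all genes. ZNF480 had 776, 809 and 904 counts in the NVR-labelled libraries and 608, 534 and 483 in OV-CTRL, against its fall with ML355 above. The difference between the effects was called for 70 members, 49 of them with the higher value for NVR and 21 with the lower, beside 16.8% and 17.3% of all genes.

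Set against OV-L1-FGGY with DMSO, the comparison that the titles imply, the NVR-labelled libraries had 47 members higher and 113 lower of 195, beside 38.2% and 35.4% of all genes. It shares the OV-L1-FGGY libraries with the first comparison, and the members named for it include several that separate the pairs. ZNF606, ZNF470 and ZNF43 had no counts in OV-L1-FGGY with DMSO, which put their rises at 31.1-fold, 26.7-fold and 9.78-fold or more. ZNF428 had 1912, 1830 and 2601 counts against 27, 24 and 22 (log2 fold change 6.29) and ZNF837, of C10, 613, 708 and 665 against 11, 14 and 19 (5.31). ZNF100 and ZNF440, without counts in the NVR-labelled libraries, were at least 88.8-fold and 54.6-fold lower. ZNF320, ZNF600 and ZNF888, with 1 count each there, had ratios of 1738, 1084 and 1074 with counting intervals whose lower ends were 311, 194 and 192. Cluster medians were -2.68 in C8, -2.27 in C4 and 2.54 in C9, and -1.99, -1.44 and 0.44 with the GC trend removed, where C9 had 8 members higher and 2 lower. C6 changed sign, from -0.41 to 0.40.

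By role, the members known to bind retroelements did not all go the same way. Of 7 such genes 6 were tested. In OV-L1-FGGY 3 were higher (ZNF91, ZNF808 and ZNF587) and 1 lower (ZNF146) than in OV-CTRL, with a median log2 fold change of 0.67. Over all genes tested the shares were 32.5% higher and 36.2% lower. ZNF93, which represses L1 elements through a site that younger L1 families have lost, had 0 counts in 10 of 12 libraries, with 1 count in an NVR-labelled library and 5 in an ML355 library. ZNF146, which has 10 fingers and no KRAB-type match, was the most abundant of them, at 140 ± 11 CPM in OV-CTRL and 104 ± 1.5 CPM in OV-L1-FGGY (SD, n = 3), a call lost in 6 of its alternatives. ZNF587 and ZNF417, paralogs that bind HERV-K sequences, had log2 fold changes of 0.85 and 0.49, the latter not called, and 22.6% and 35.6% of their 50-base words occur in other genes. None of the 6 was called with ML355, beside 21.3% higher and 23.5% lower over all genes tested. ZNF146 and ZNF507 were lower in the NVR-labelled libraries than in OV-CTRL (-0.56 and -0.75), where 14.5% of all genes were higher and 15.3% lower.

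Other members with described roles were followed as a list of 11, of which 9 were tested. In OV-L1-FGGY against OV-CTRL 5 were higher and 2 lower, beside 32.5% and 36.2% of all genes tested. ZNF675, an inhibitor of TRAF6 signalling, rose from 80, 83 and 85 counts to 344, 310 and 382 (log2 fold change 2.48), and ZNF350 (ZBRK1), a partner of BRCA1, from 97, 98 and 99 to 145, 177 and 174 (1.17). ZNF224, a repressor of aldolase A, had 138, 160 and 178 counts in OV-CTRL, 203, 283 and 215 in the NVR-labelled libraries, 227, 286 and 260 in OV-L1-FGGY with DMSO and 168, 167 and 120 with ML355. It was called higher in the NVR-labelled libraries than in OV-CTRL and lower with ML355 than with DMSO. ZNF274, which directs SETDB1 to the 3′ ends of zinc finger genes, differed by 0.49 on the log2 scale (adjusted p = 0.0014 in edgeR), a call lost without a filter on low counts. ZNF558 was not called in any comparison, and ZNF154, with 8, 14 and 14 counts in OV-CTRL and 0, 0 and 6 in OV-L1-FGGY, was not called in this one. ZNF382 and ZNF177, both reported as methylated in tumours, had at most 3 counts in any library.

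Of 15 genes of the corepressor machinery on which KRAB proteins act, 9 were higher and 4 lower in OV-L1-FGGY than in OV-CTRL (median log2 fold change 0.57), in a comparison where 32.5% of all genes were called higher and 36.2% lower. TRIM28, the direct partner of the KRAB domain, which lies just beyond C10 on chromosome 19, had 35105, 33574 and 30341 counts in OV-CTRL and 7927, 8143 and 8544 in OV-L1-FGGY with DMSO (log2 fold change -1.59, standard error 0.16, edgeR adjusted p = 1.04e-07). It belongs to the protein-coding genes of chromosome 19 outside the members, whose median was -1.26 with 65.8% called lower. The genes of the 3 HP1 proteins did not move together: CBX1 and CBX5 were lower (-1.17 and -0.85) and CBX3 higher (0.70). CHD3 was lower (-1.37) and CHD4 higher (0.57). ATF7IP, SMARCAD1, MORC3, ATRX, DAXX, HDAC1 and HDAC2 were also higher (0.40 to 1.95). SETDB1 was not called there (0.54) and rose with ML355 (0.88). With ML355 5 were higher and 5 lower, beside 21.3% and 23.5% of all genes. In the NVR-labelled libraries against OV-CTRL 1 was higher and 8 were lower, beside 14.5% and 15.3% of all genes.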

How the data were processed

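RNA of 12 libraries of NCI-H520 cells was sequenced, and the authors deposited raw read counts per Ensembl gene, made with STAR 2.5.3a and HTSeq 0.11.2 on hg38 per the submitters' processing notes. The annotation release, the strand setting and the treatment of reads with several matches are not given in the sources used here. The labels name a TruSeq library kit and the methods a NEB kit. Totals were 16242082 to 27004768 counts per library, and counting error is the lower limit of precision for each value.

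Genes were matched to GENCODE 44 by identifier (57532 of 58302). Counts were fitted with edgeR 4.0.16 in R 4.3.3 (TMM scaling, filterByExpr, robust quasi-likelihood test, 4 group means), and a gene was called at a Benjamini-Hochberg adjusted p under 0.01 over the 17849 genes kept. The difference of the inhibitor effects was a contrast of the same fit. DESeq2 1.42.0, limma 3.58.1 (voom), other scalings, filters and thresholds, a replicate block, each library left out in turn, and, chosen after the data were seen, a GC trend offset and a minimum of 0.5 CPM were tried as alternatives. On simulated counts for the comparison of OV-L1-FGGY with OV-CTRL, 169 of 200 genes changed by a log2 fold of 1 were recovered with 3 false calls among 17849 genes. The changed genes excluded those with few counts, and all genes were given the same spread. The simulation therefore does not cover members near the floor or a comparison in which most genes are called. CPM values use TMM-scaled library sizes.

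A fold against a group without counts was computed against a floor of 3 counts per library and is a lower bound. With 1 to 3 summed counts the ratio is given with an exact 95% counting interval. Both cover counting error only.

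Named members were the 5 largest rises and falls per comparison among called members averaging 1 CPM or more whose groups did not overlap, the member with the smallest adjusted p per cluster in OV-L1-FGGY against OV-CTRL, and members with described roles. Rises and falls were ordered by the fitted fold, which gives no order among genes without counts in a group. Others named beside them were chosen after their values were seen. Members and lists were chosen with earlier results of these data known. Fingers and the KRAB-type match were counted by patterns in the translated GENCODE canonical coding sequences. Promoter windows are from RefSeq, and alignments were made with Biopython 1.88. The spans of 95 members overlap another protein-coding gene, 60 of them on the same strand, and 24 share over 20% of their 50-base words with other genes, so their counts are uncertain.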

Additional observations from a re-analysis of the deposited data

How the results depend on the processing

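Of 1809 recomputed values for the named genes, 1737 kept their direction and their side of the threshold, 69 kept the direction and lost the call, and 3 changed sign, all with the GC trend offset chosen after the data were seen. ZNF358 in the NVR-labelled libraries against OV-L1-FGGY with DMSO was -0.77 (edgeR adjusted p = 0.001), ZNF507 in the same comparison 0.17 (adjusted p = 0.161) and ZNF581 in OV-L1-FGGY against OV-CTRL 0.00031 (adjusted p = 0.999). With at least 10 counts in every library, which leaves fewer genes, 94 members (70 higher, 24 lower) were called in OV-L1-FGGY against OV-CTRL and 98 (27 and 71) in the NVR-labelled libraries against OV-L1-FGGY. Where calls also had to reach a log2 fold change of 1 in size, 66 members (16 higher) were called with ML355 and 18 (13 and 5) in the NVR-labelled libraries against OV-CTRL. At an adjusted p under 0.05 the latter had 61 (32 and 29), and the difference of the inhibitor effects had 35 lower. No share of all genes is set beside the counts in this section. They show the dependence on the settings alone, not whether the members differ from other genes.

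With each library left out in turn, 140 to 148 members (99 to 106 higher, 39 to 42 lower) were called in OV-L1-FGGY against OV-CTRL, 87 to 99 (25 to 30, 58 to 74) with ML355, 18 to 37 (10 to 22, 7 to 15) in the NVR-labelled libraries against OV-CTRL, 147 to 157 (44 to 47, 103 to 111) against OV-L1-FGGY, and 57 to 75 (42 to 56, 15 to 23) for the difference of the inhibitor effects. The lowest of the third was 18 without OV-CTRL replicate 3, and it was 22 without OV-CTRL replicate 2.

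Libraries with the same replicate number did not deviate together (correlations -0.35 to 0.17), so the numbers were not taken to pair them. With the replicate number as a block, 147, 96, 29, 158 and 66 members were called in the same order. Clusters numbered 12 with a largest gap of 250 kb and 9 with 1 Mb. Members with few counts cannot show small differences at this depth.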
